A study of Mus musculus with 24 samples.

Results

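The organic ion and drug transporters described here are the genes of the mouse kidney that move drugs, toxins, urate, carnitine and conjugated metabolites across the membranes of tubule cells. They were taken by gene symbol alone and comprise the Slc22a family, the Slco family of organic anion transporting polypeptides (OATP), the Slc47a family of multidrug and toxin extrusion proteins (MATE), the Abcc family of ATP-driven exporters, and Abcg2, Abcb1a and Abcb1b. This rule found 56 of the 56941 genes in the table, with 26 genes of the Slc22a family, 15 of the OATP family, 13 ABC genes and 2 MATE genes. Single genes are described only where the mean of the authors' tpm values was 1 or more, which held for 43 of the 56. The least abundant of these 43, Slc22a27, averaged 1.04 tpm, and the most abundant gene below the threshold averaged 0.970 tpm.

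Proximal tubule cells clear organic anions and cations from blood in a relay. Uptake carriers of the basolateral membrane load the cell, often in exchange for dicarboxylates or driven by the membrane potential, and exporters of the apical (brush border) membrane pass the substrate into urine. The same families also recover urate and carnitine from the filtrate, and they decide how long many drugs and uraemic toxins stay in the body.

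Kidney RNA came from male wild-type C57BL/6J mice, 8 to 11 weeks old at surgery, in which the left anterior descending coronary artery (LAD) was either tied off for good or, in sham surgery, not ligated. Kidneys were taken 5d (9 mice) or 28d (7 mice) after myocardial infarction (MI) and from 8 sham mice at 5d, so that the sham group served both times and infarction and time since surgery cannot be told apart at 28d. Sham mice went through the same procedure apart from the ligation, and permanent ligation models an infarct without reperfusion. Counts of 8 kidneys at 5d and 6 kidneys at 28d could be assigned to their sample, each from a mouse of its own, and p-values therefore measure the spread between these 22 kidneys.

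MACE (Massive Analysis of cDNA Ends) counts 3′ ends of mRNA marked with unique molecular identifiers, so that the length of a transcript does not set its count. Levels of different genes are compared with caution, since reads of shared or overlapping 3′ ends may have been split or left out. Total counts were between 2280618 and 3786275 per kidney, and the 56 genes took between 0.465% and 0.635% of them. Marker genes of the proximal tubule were abundant as a sum in every kidney, with 5280.3 to 7683 summed CPM (counts scaled to TMM-normalized library size) for 10 genes of its S1 and S2 segments and 1174 to 2513 CPM for 5 genes of the S3 segment. Of these, 8 of the 10 and 4 of the 5 had enough counts to be tested. Transcripts of the adrenal cortex (5 genes) summed to 724 CPM in sham replicate 2, 545 CPM in sham replicate 6 and 65.8 CPM in 5d replicate 5, and to 4.0 CPM or less in the other kidneys. Kidneys at 5d held more red blood cell transcripts (4999.95 to 19129 CPM for 6 genes) than sham kidneys (2219 to 4153 CPM). Of the 5 genes tested, 4 were significantly upregulated, as were 7 of all 12780 genes tested. The part of these transcripts in the levels of transporter genes was not tested. Adipocyte transcripts (6 genes) summed to 61.3 to 441 CPM in sham kidneys, 17.3 to 306 CPM at 5d and 61.7 to 134 CPM at 28d. In whole kidney RNA, fewer cells of a type and less RNA per cell cannot be told apart.

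The urate exchanger Slc22a12 (URAT1) was the most abundant transporter gene, and other abundant genes were the organic anion uptake carrier Slc22a6 (OAT1), Slc22a18, the apical cation extruder Slc47a1 (MATE1) and the basolateral cation carrier Slc22a2 (OCT2). Mean deposited values were 1229 tpm for Slc22a12, 627 tpm for Slc22a6, 470.4 tpm for Slc22a18, 428 tpm for Slc47a1 and 281 tpm for Slc22a2. The next genes were Abcg2 (BCRP, an apical exporter of urate and drugs) with 257 tpm, Slc22a7 (OAT2) with 231 tpm, Slc22a8 (OAT3, the other major anion uptake carrier) with 218 tpm, Slco1a6 with 217 tpm, Slco1a1 with 209.9 tpm and Slco3a1 with 199 tpm. Neighbours in this order from Slc22a7 to Slco3a1 lay within each other's spread over kidneys, whereas every kidney held more Slc22a12 than any kidney held Slc22a6. Slc22a30, a rodent member of the anion carrier branch, averaged 181 tpm, the conjugate exporter Abcc2 (MRP2) 151 tpm and the carnitine carrier Slc22a5 (OCTN2) 128 tpm. Of the genes below 100 tpm, 18 averaged between 10 and 100 tpm and 10 between 1 and 10 tpm, and among the latter the drug exporters Abcb1a and Abcc3 and the cation carrier Slc22a3 averaged 2.27, 2.23 and 1.71 tpm.

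**Figure D1:**
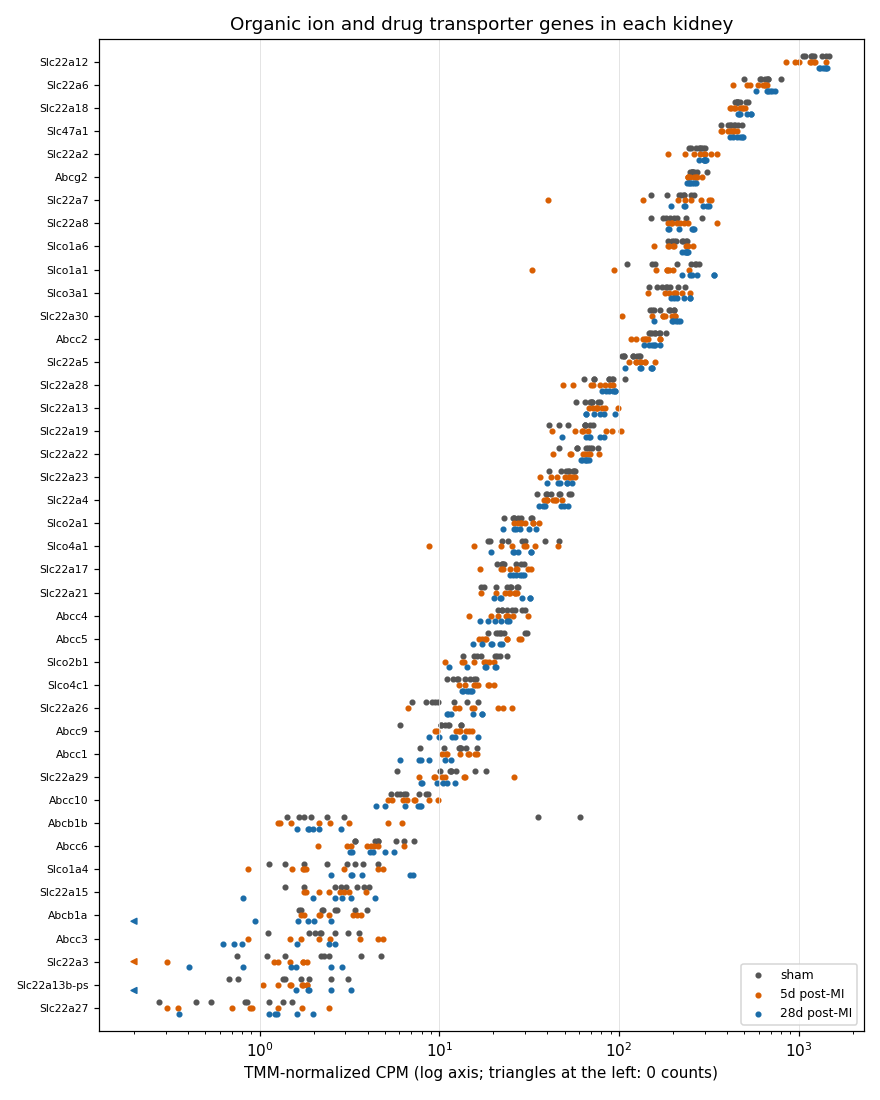
TMM-normalized CPM of 42 of the 43 transporter genes with a mean deposited tpm of 1 or more, 1 point per kidney on a log axis (triangles mark 0 counts), grey for sham (8 kidneys), orange for 5d post-MI (8) and blue for 28d post-MI (6), ordered by mean normalized CPM. The groups overlap for every gene shown, Slco1a1 and Slc22a7 have single low kidneys at 5d, and Abcb1b has 2 high sham kidneys.

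Of the 43 genes, 36 passed the count filter and could be tested, and none of them was a DEG (adjusted p-value under 0.05, edgeR's quasi-likelihood test with Benjamini-Hochberg adjustment over 12780 genes) in any comparison. At 5d post-MI against sham, 0 of 36 were called and 5 had an unadjusted p-value under 0.05, beside 0.0704% and 7.9% of all genes tested. Slc22a5, Slc22a13, Slc22a26 and Slco4c1 had a positive log2 fold change among those 5 and Abcc2 a negative one, where 3.92% of all genes had a positive and 3.97% a negative one at this level. Of the 36 values, 17 were above 0, against 50.1% of all genes. The median log2 fold change of the 36 genes was −0.03, that of all genes tested was 0.00018, and single values ran from −0.40 for Slco1a1 to 0.57 for Slc22a26. The 95% interval lay within 1 log2 unit of 0 for 35 of the 36 genes, Slc22a26 being the exception, and within 0.5 for 26 of them. DESeq2 and limma's voom called 0 transporter genes as well. Without any filter on low counts edgeR called 1, Slc22a26, by 0.57 on the log2 scale (adjusted p = 0.0279). That fit tested 50 transporter genes and called 80 of all 30116 genes.

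At 28d post-MI against sham, 0 of 36 transporter genes were called and 5 had an unadjusted p-value under 0.05, Slc22a5, Slco1a4 and Slco3a1 with positive and Abcc1 and Abcc5 with negative log2 fold changes. The shares over all genes tested were 0.0235% called and 8.68% at the unadjusted level, 4.45% with positive and 4.23% with negative values. The median log2 fold change was 0.08 for the 36 genes and −0.0012 for all genes, and 24 of the 36 values were above 0, against 49.6% of all genes. All 7 ABC exporter genes tested (Abcc1, Abcc2, Abcc4, Abcc5, Abcc6, Abcc10 and Abcg2) had negative values, with a median of −0.21, and 0 of the 7 passed the test. The MATE extruder Slc47a1 had a positive value (0.09).

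Between the infarct groups, 28d against 5d post-MI, 0 of 36 genes were called and 9 had an unadjusted p-value under 0.05, beside 0.415% and 9.05% of all genes. Slc22a6, Slc22a12, Slc22a18, Slc22a28, Slc47a1, Slco1a1, Slco1a4 and Slco1a6 had positive log2 fold changes and Abcc1 a negative one, beside 5.03% of all genes with positive and 4.01% with negative values at this level. Except for Slco1a4, each of these 8 genes with a positive value was lowest of all 22 kidneys in 5d replicate 2. Above 0 were 22 of the 36 values, against 48.6% of all genes. The median was 0.07 for the transporter genes and −0.0046 for all genes. All 4 tested S3 markers also had positive values in this comparison (median 0.22), as did 3 of 8 tested S1 and S2 markers. The part of segment shares in these values was not tested. In fits that each left out 1 kidney, 5 to 10 transporter genes had an unadjusted p-value under 0.05 between the infarct groups, and the count was 5 where 28d replicate 3, 6 or 7 or 5d replicate 7 was left out. The count was 6 without 5d replicate 2, beside 1030 of all 12718 genes tested in that fit. The range was 3 to 7 for 28d against sham, with 3 without 28d replicate 7, and 4 to 7 for 5d against sham. In none of the comparisons were the groups free of overlap for a transporter gene, while 0.0548%, 0.258% and 0.344% of all genes tested had groups that did not overlap, in the order given. These comparisons share kidneys, so that their lists are not independent of each other.

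**Figure D2:**
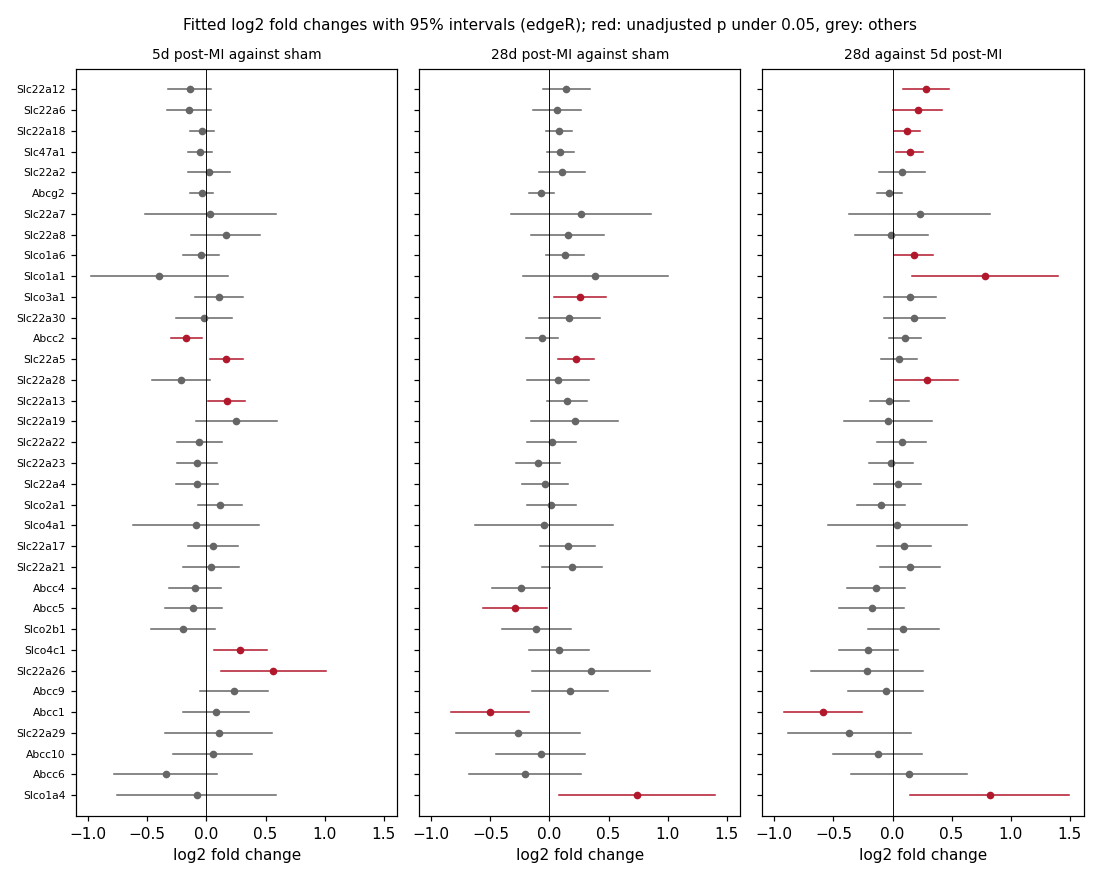
Fitted log2 fold changes (points) with 95% intervals (lines) of 35 of the 36 transporter genes tested by edgeR, in a panel for each comparison (5d with sham on the left, 28d with sham in the middle, 28d with 5d on the right). Red marks an unadjusted p-value under 0.05 (5, 5 and 9 genes) and no gene passed the adjusted threshold, with wide intervals for Slco1a1, Slc22a7, Slco4a1 and Slco1a4.

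Of the organic anion carriers, Slc22a6 and Slc22a8 load the proximal tubule cell from blood and lie side by side on chromosome 19 (8618039 to 8628299 and 8591254 to 8611835, GENCODE M21 on GRCm38, plus strand). Slc22a6 ranged from 495 to 797 CPM in sham kidneys (median 659), from 431 to 670.1 CPM at 5d (median 616) and from 576 to 739 CPM at 28d (median 686). All 3 groups overlapped, and the lowest kidney of all was 5d replicate 2. The log2 fold change was −0.15 at 5d (standard error 0.09), 0.06 at 28d (0.10) and 0.21 between the infarct groups (0.10), with edgeR adjusted p-values of 0.739, 0.911 and 0.534. Slc22a8 ranged from 150.03 to 288 CPM in sham kidneys (median 197), from 188 to 349.9 CPM at 5d (median 214) and from 188 to 261 CPM at 28d (median 235). Here 5d replicate 2 was the highest kidney of all, opposite to its place in Slc22a6. The log2 fold change of Slc22a8 was 0.16 at 5d (95% interval −0.13 to 0.45) and 0.15 at 28d (−0.16 to 0.46). Slc22a7, which carries nucleotides and prostaglandins among other anions, was found at 152 to 261 CPM in sham kidneys (median 226), 40.2 to 324 CPM at 5d (median 242) and 195 to 319 CPM at 28d (median 264). The value of 40.2 CPM again belonged to 5d replicate 2, and the group's SD of 96.2 CPM was larger than that of sham (35.5 CPM) or 28d kidneys (50.3 CPM).

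A cluster of rodent anion carriers lies between 7673061 and 8405111 of chromosome 19 and holds Slc22a19 (OAT5), Slc22a26, Slc22a27, Slc22a28, Slc22a29 and Slc22a30. Slc22a26, at 7781041 to 7802667 on the minus strand, ranged from 7.07 to 16.4 CPM in sham kidneys (median 9.65), from 6.71 to 25.3 CPM at 5d (median 15.5) and from 11.1 to 17.3 CPM at 28d (median 13.5). Its counts were between 16 and 84 per kidney, and 7 of 8 kidneys at 5d were above the sham mean. The log2 difference at 5d was 0.57 ± 0.22 (SE, edgeR adjusted p = 0.503), the largest of the 36 genes tested at that time. Slc22a28 ranged from 64.2 to 108 CPM in sham kidneys (median 88.0), from 48.8 to 92.5 CPM at 5d (median 75.0) and from 80.9 to 95.6 CPM at 28d (median 90.5). All 6 kidneys at 28d were above the 5d mean, and the log2 difference between these groups was 0.29 ± 0.13 (SE, edgeR adjusted p = 0.511). Slc22a30 had a mean of 177 ± 22.2 CPM in the 8 sham kidneys (SD), 175 ± 33.9 CPM in 8 kidneys at 5d and 199 ± 21.99 CPM in 6 kidneys at 28d. Slc22a19 had 59.2 ± 11.3, 71.4 ± 19.95 and 68.8 ± 12.2 CPM in the same order (SD), and the prostaglandin carrier Slc22a22 (OAT-PG), on chromosome 15, had 63.9 ± 9.35, 61.6 ± 10.95 and 64.8 ± 2.43 CPM. Slc22a29 had 12.2 ± 3.70, 12.7 ± 5.87 and 9.91 ± 1.69 CPM, and its last 200 transcript bases matched those of Slc22a27 at 187 positions, so that the authors' counting may have split reads between the pair. None of these genes passed the edgeR test in any comparison.

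Urate and nicotinate are recovered from the filtrate by Slc22a12 and Slc22a13 (OAT10). Slc22a12, at 6535845 to 6543032 on the minus strand of chromosome 19, ranged from 1060.4 to 1472 CPM in sham kidneys (median 1205), from 854 to 1422 CPM at 5d (median 1163) and from 1299 to 1444 CPM at 28d (median 1389). All 6 kidneys at 28d were above the means of both other groups and 1 of them was above every kidney at 5d. The CV within the group was 4.24% at 28d, 12.2% in sham and 16.0% at 5d. The log2 fold change was −0.14 at 5d (standard error 0.09, adjusted p = 0.741), 0.14 at 28d (0.09, adjusted p = 0.728) and 0.29 between the infarct groups (0.09, adjusted p = 0.289), all from edgeR. Nrxn2 overlaps this gene on the opposite strand, and the strand setting of the counting is not given in the sources used here. Slc22a13 ranged from 57.4 to 78.9 CPM in sham kidneys (median 70.3), from 68.0 to 99.0 CPM at 5d (median 75.6) and from 65.9 to 94.98 CPM at 28d (median 75.6). Of the kidneys at 5d, 7 of 8 exceeded the sham mean, with a difference of 0.17 ± 0.08 log2 units (SE, edgeR adjusted p = 0.583). Slc22a13 lies within the annotated span of Slc22a14, on the same strand.

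Slc22a2 brings organic cations into the proximal tubule cell, and they leave through Slc47a1. Slc22a2 ranged from 245 to 301 CPM in sham kidneys (median 279.6), from 188 to 351 CPM at 5d (median 291) and from 280.5 to 307 CPM at 28d (median 299). Both the lowest and the highest kidney of all were at 5d, replicates 2 and 5, and the CV was 18.5% at 5d against 7.06% in sham and 2.96% at 28d. Counting alone would give a CV of 3.54% for Slc22a2 at 28d. Slc47a1 ranged from 369 to 483 CPM in sham kidneys (median 429.9), from 368 to 457 CPM at 5d (median 420.5) and from 417 to 493.2 CPM at 28d (median 461). All 6 kidneys at 28d exceeded the 5d mean, with a difference of 0.15 ± 0.06 log2 units (SE, edgeR adjusted p = 0.370). Slc22a18, a carrier of uncertain substrate, ranged from 443 to 524 CPM in sham kidneys (median 458), from 417 to 504 CPM at 5d (median 459) and from 458 to 542 CPM at 28d (median 492). Its log2 difference between the infarct groups was 0.12 ± 0.05 (SE, edgeR adjusted p = 0.494).

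Slc22a5 brings carnitine, the carrier of fatty acids into mitochondria, back from the filtrate. It ranged from 104 to 132 CPM in sham kidneys (median 120.2), from 114 to 158 CPM at 5d (median 132) and from 108 to 153 CPM at 28d (median 141). Of the kidneys at 5d, 7 of 8 exceeded the sham mean, and of those at 28d, 5 of 6 did. The log2 fold change was 0.17 at 5d (standard error 0.07, adjusted p = 0.536) and 0.22 at 28d (0.07, adjusted p = 0.336) from edgeR, and over 30 settings it stayed between 0.13 and 0.20 at 5d and between 0.19 and 0.29 at 28d, with no adjusted p-value under 0.138. The ends of Slc22a5 and of its neighbour Slc22a21, another carnitine carrier, were identical at 191 of 199 aligned bases, and reads could have been split between them. Slc22a21 had 23.0 ± 4.04 CPM in the 8 sham kidneys (SD), 23.7 ± 3.36 CPM in 8 kidneys at 5d and 26.1 ± 5.50 CPM in 6 kidneys at 28d. Slc22a4, the ergothioneine carrier (OCTN1), had 44.6 ± 6.66, 42.2 ± 3.46 and 43.6 ± 6.93 CPM in the same order.

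Of the OATP genes with a mean over 100 tpm, Slco1a1 had the largest CV in each group. Its 8 sham kidneys ranged from 111 to 280.1 CPM (median 232), its 8 kidneys at 5d from 32.9 to 246 CPM (median 185) and its 6 kidneys at 28d from 225 to 337 CPM (median 263). Every kidney at 28d was above the mean of sham (213 ± 64.0 CPM) and of 5d kidneys (162 ± 67.2 CPM), while 7 of 8 kidneys at 5d were below the sham mean. The log2 fold change was −0.40 at 5d (95% interval −0.98 to 0.18, adjusted p = 0.792), 0.39 at 28d (−0.225 to 1.0003, adjusted p = 0.779) and 0.79 between the infarct groups (0.17 to 1.40, adjusted p = 0.391), from edgeR. Without 5d replicate 2 edgeR gave 0.63 for the last value (Benjamini-Hochberg adjusted p = 0.401). Slco1a1 lies at 141907282 to 141946962 on the minus strand of chromosome 6 and encodes an apical carrier of steroid conjugates. Its relative Slco1a6, from the same cluster, ranged from 188 to 239.99 CPM in sham kidneys (median 217), from 158 to 259 CPM at 5d (median 201) and from 223 to 243 CPM at 28d (median 238). The kidneys at 28d again formed the narrowest group, with a CV of 3.02%, and all 6 exceeded the 5d mean (0.18 ± 0.08 log2 units, SE, edgeR adjusted p = 0.502). Counting alone would give a CV of 3.97% for Slco1a6 at 28d, more than was found.

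Slco1a4, an OATP that also carries steroid conjugates and digoxin, was scarce in the kidney, with 1.13 to 4.58 CPM in sham kidneys (median 2.71), 0.866 to 4.89 CPM at 5d (median 1.78) and 2.51 to 7.15 CPM at 28d (median 3.50). These levels rest on 2 to 22 counts per kidney. Its log2 fold change of 0.74 at 28d (standard error 0.33, adjusted p = 0.522) and of 0.82 between the infarct groups (0.33, adjusted p = 0.410) from edgeR did not pass the test, and 28d replicates 6 and 7 held the highest levels, with 7.15 and 6.90 CPM. Slco3a1, a prostaglandin carrier found in many tissues, ranged from 146 to 232 CPM in sham kidneys (median 183), from 145 to 249 CPM at 5d (median 203) and from 196 to 250.1 CPM at 28d (median 219). All 6 kidneys at 28d exceeded the sham mean, with a difference of 0.26 ± 0.11 log2 units (SE, edgeR adjusted p = 0.490). Slco4c1, a basolateral carrier of digoxin and thyroid hormone, ranged from 11.1 to 15.9 CPM in sham kidneys (median 13.3), from 12.8 to 20.2 CPM at 5d (median 16.2) and from 13.4 to 15.3 CPM at 28d (median 14.5). It was above the sham mean in 7 of 8 kidneys at 5d (0.28 ± 0.11 log2 units, SE, edgeR adjusted p = 0.503). The prostaglandin transporter Slco2a1 had log2 fold changes of 0.11, 0.01 and −0.10 in the 3 comparisons, Slco2b1 of −0.20, −0.11 and 0.09, and Slco4a1, which ranged from 8.81 to 46.6 CPM over all kidneys, of −0.09, −0.05 and 0.04.

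**Figure D3:**
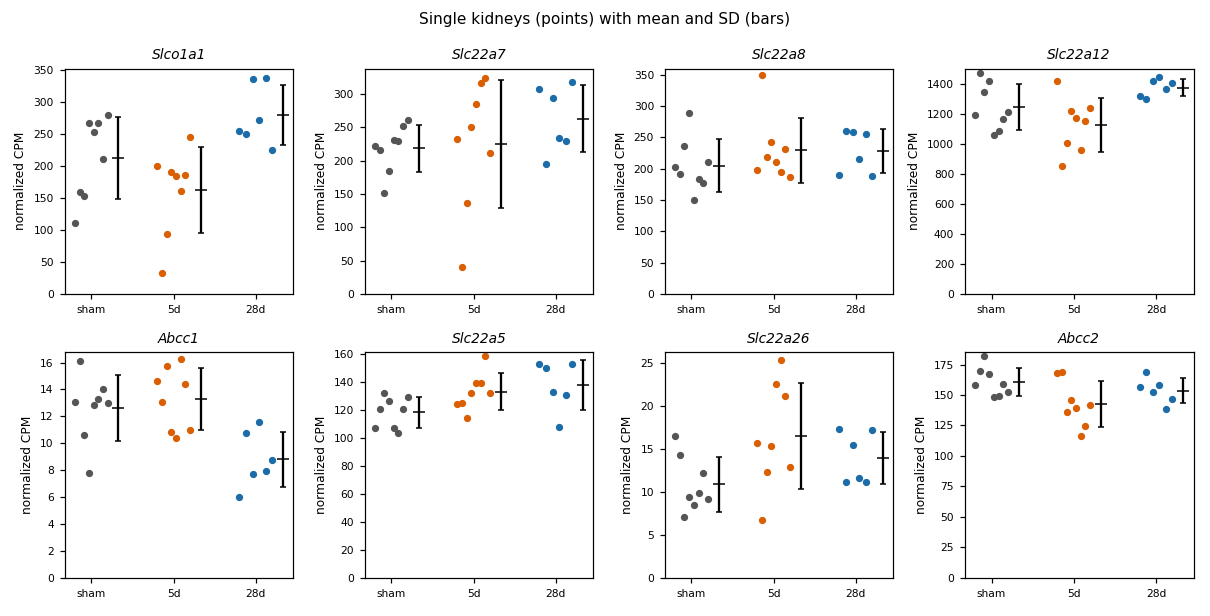
TMM-normalized CPM of 8 transporter genes, 1 point per kidney in the sham, 5d post-MI and 28d post-MI groups, with the mean and SD beside each group (8, 8 and 6 kidneys, axes from 0). The groups overlap in all 8 panels, the lowest Slco1a1 (32.9 CPM) and Slc22a7 (40.2 CPM) and the highest Slc22a8 (349.9 CPM) are all the same kidney at 5d, and Abcc1 at 28d lies between 6.04 and 11.6 CPM.

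ABC exporters expel conjugates and drugs with the energy of ATP. Abcc2 ranged from 148 to 182 CPM in sham kidneys (median 159), from 116 to 169 CPM at 5d (median 141) and from 139 to 169 CPM at 28d (median 154). Of the kidneys at 5d, 6 of 8 were below the sham mean, and the log2 value of −0.17 (standard error 0.06) had the lowest adjusted p-value of the 36 genes tested at that time, 0.463 from edgeR. Abcc1 (MRP1), which exports glutathione conjugates and leukotrienes, ranged from 7.82 to 16.2 CPM in sham kidneys (median 13.0), from 10.4 to 16.2 CPM at 5d (median 13.7) and from 6.04 to 11.6 CPM at 28d (median 8.36). All 6 kidneys at 28d were below the means of both other groups, although their range overlapped both. The log2 fold change was −0.50 at 28d against sham (standard error 0.16, adjusted p = 0.327) and −0.59 against 5d (0.16, adjusted p = 0.110, the lowest of the 36 genes tested in any comparison), from edgeR. Over 30 settings the last value ran from −0.68 to −0.50, with adjusted p-values of 0.0539 to 0.266. Abcc1 had 15 to 54 counts per kidney, and counting alone would give a CV of 20.5% at 28d, beside the CV of 23.3% found. Abcc5, an exporter of cyclic nucleotides, ranged from 18.6 to 30.8 CPM in sham kidneys (median 22.01), from 16.7 to 28.6 CPM at 5d (median 20.98) and from 15.5 to 22.2 CPM at 28d (median 19.6), with a difference from sham of −0.29 ± 0.13 log2 units at 28d (SE, edgeR adjusted p = 0.540). All 6 kidneys at 28d were below the sham mean, and the same held for the apical exporter Abcc4 (MRP4), with a difference of −0.24 ± 0.12 log2 units (SE, edgeR adjusted p = 0.585). Abcg2 was steady, with 265 ± 19.5, 258 ± 17.3 and 253 ± 11.2 CPM (SD) and log2 fold changes of −0.04, −0.07 and −0.03.

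Of the genes that carry a transporter name and are known for another role, Abcc9 is a regulatory subunit of potassium channels and Slc22a17 a receptor of lipocalin-2. Abcc9 had 10.8 ± 2.24, 12.7 ± 2.15 and 12.2 ± 2.72 CPM (SD) in sham, 5d and 28d kidneys, and Slc22a17 had 24.5 ± 3.26, 25.4 ± 5.10 and 27.3 ± 1.90 CPM. Slc22a23 had 51.6 ± 5.36, 49.0 ± 7.21 and 48.4 ± 5.39 CPM. None of the 3 passed the test in any comparison.

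Levels also differed together between kidneys of the same group. One kidney, 5d replicate 2, was the lowest of all 22 kidneys in 13 of the 36 genes tested and the highest in 2 (Slc22a8 and Slc22a29), while no other kidney was lowest in more than 3. The 13 genes were Slc22a2, Slc22a6, Slc22a7, Slc22a12, Slc22a18, Slc22a22, Slc22a26, Slc22a28, Slc22a30, Slc47a1, Slco1a1, Slco1a6 and Slco3a1. How often this kidney was lowest over all genes tested was not counted. Over genes of the whole table, counts in pairs with this kidney differed by a chi-square per degree of freedom of 3.43 to 7.21. Pairs of other kidneys at 5d reached 4.93. This kidney also had the lowest summed level of the S3 markers (1174 CPM, against 1617 to 2423 CPM in the other kidneys at 5d). Kap, the kidney androgen-regulated protein, was at 28486 CPM in it, against 44241 to 59094 CPM in the others of its group. Odc1, ornithine decarboxylase, was at 137 CPM against 209.8 to 655 CPM. The oxidizing enzyme gene Cyp2j5 was at 645 CPM against 667 to 849 CPM. The prolactin receptor Prlr stood at 96.9 CPM, against 14.3 to 41.4 CPM.

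**Figure D4:**
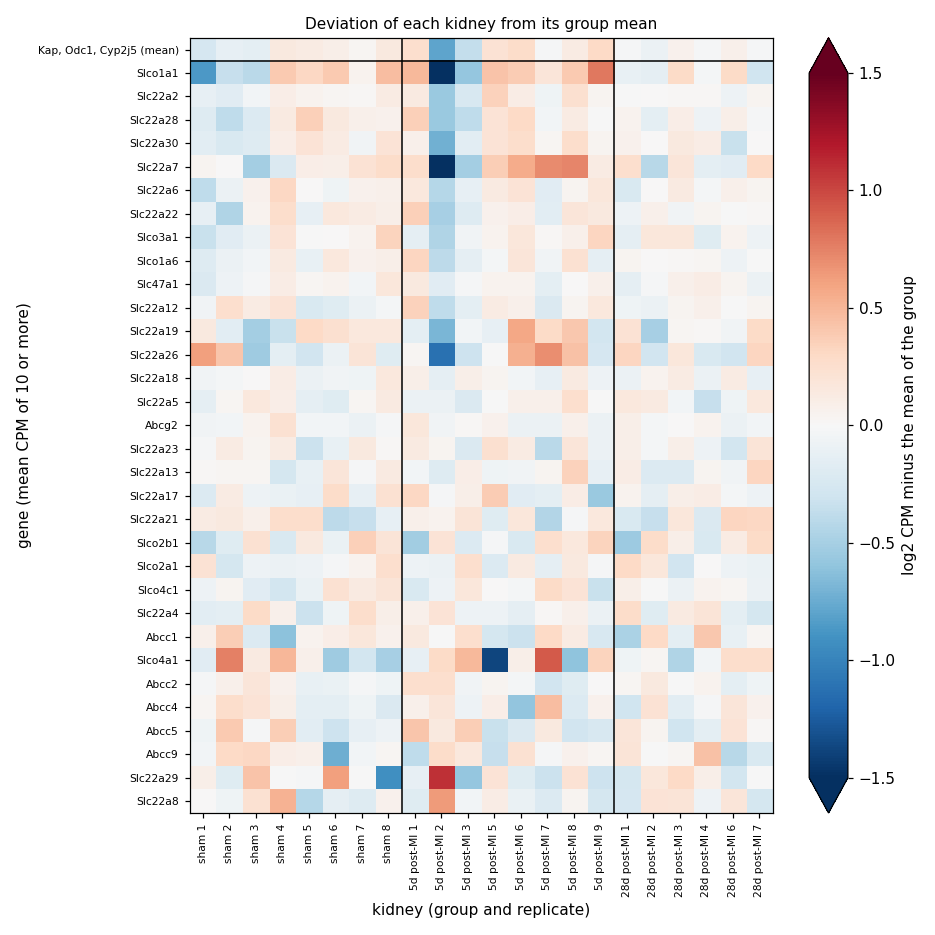
Log2 CPM of transporter genes with a mean CPM of 10 or more minus the mean of its group (colour, blue below and red above, cut at 1.5) in each of 22 kidneys (columns), with the mean of Kap, Odc1 and Cyp2j5 in the top row. The column of 5d replicate 2 is blue in the upper rows and red in Slc22a8 and Slc22a29, and sham replicates 1 to 3 and 5d replicate 3 share the blue of Slco1a1.

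Levels within groups were compared with a score of the S3 segment, the mean log2 CPM of Slc7a13, Cyp7b1, Slc3a1, Slc5a8 and Atp11a, after each gene's group mean was taken off (22 kidneys, 36 relations, permutation within groups). Slc22a28 followed this score with r = 0.80 (permutation p = 0.0001, adjusted p = 0.0036, rho = 0.72 with permutation p = 0.0005), and r was 0.72 without the 2 kidneys farthest from the median score, 5d replicate 2 and sham replicate 3. For Slco1a1 r was 0.81 (permutation p = 0.00037, adjusted p = 0.00666, rho = 0.74 with permutation p = 0.00018) and 0.65 without these kidneys. For Slc47a1 r was 0.57 (permutation p = 0.00951, adjusted p = 0.0382, rho = 0.58 with permutation p = 0.0088) and 0.54 without them. The relation of Slc47a1 missed the threshold with a prior count of 0.5 (permutation, adjusted p = 0.0957) and on the deposited tpm scale (permutation, adjusted p = 0.0583). Another 6 genes had an adjusted p-value under 0.05 by the permutation test. Relations were computed for transporter genes only, so the share of all genes tested that followed the score is not known. With all kidneys r was 0.70 for Slc22a2, 0.74 for Slc22a7, 0.71 for Slc22a30, 0.63 for Slc22a19, 0.61 for Slco1a6 and −0.62 for Slc22a8, and without both kidneys these values were 0.50, 0.37, 0.40, 0.32, 0.42 and −0.35 in the same order. Slc3a1 entered the score although it did not pass the filter on low counts, with 0 to 1.59 CPM per kidney and 0 CPM in sham replicate 3. With a score of the other 4 genes, chosen after seeing the data, 9 of 36 relations had an adjusted p-value under 0.05 by the permutation test and 8 of them were among those above. Slc22a28 then had r = 0.79 and Slco1a1 r = 0.87, or 0.64 and 0.62 without 5d replicates 2 and 3, which lay farthest from the median of that score. Slc47a1 had r = 0.50 with it (permutation, adjusted p = 0.0544), Slc22a22 passed with r = 0.65 (permutation, adjusted p = 0.0308), and r was −0.66 for Slc22a8.

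A second score was the mean of Kap, Odc1 and Cyp2j5, genes known to depend on androgens in the proximal tubule of male mice, and these 3 genes were chosen after the values of 5d replicate 2 had been seen, so that the relations are descriptions without a test. Slco1a1 followed this score with r = 0.97 and rho = 0.96 over 22 kidneys, and r was 0.93 without 5d replicates 2 and 3. Among the other genes, r was 0.88 for Slc22a2, 0.87 for Slc22a28, 0.83 for Slc22a30, 0.80 for Slc22a6, 0.75 for Slc22a22, 0.72 for Slco3a1 and 0.67 for Slc47a1. For these 8 genes r stayed above 0.5 without both kidneys, whereas Slc22a7, Slco1a6 and Slc22a12 had r above 0.5 only with them (0.42, 0.49 and 0.28 without). No ABC exporter gene had r above 0.5, unlike the MATE extruder Slc47a1, and r was 0.17 for Abcg2 and −0.32 for Abcc2. The summed level of the 3 genes was 43804 to 53065 CPM in sham, 29267 to 60363 CPM at 5d and 55019.9 to 63189 CPM at 28d, of which Kap made up nearly all. The score is a mean of log2 CPM and does not follow this sum. In proportion Odc1 varied most at 5d (137 to 655 CPM), beside 28486 to 59094 CPM for Kap and 645 to 849 CPM for Cyp2j5. Kap was at 42725 to 51699 CPM in sham kidneys and at 53724 to 61786 CPM at 28d, while the ranges of Odc1 and Cyp2j5 overlapped between these groups, and 0 of the 3 genes were called in any comparison. All 22 kidneys held the Y-linked genes Ddx3y, Eif2s3y, Kdm5d and Uty (103 to 144 CPM summed) and at most 0.4 CPM of Xist. Relations of genes outside the transporter set with this second score were not computed either. The part of androgens and of the share of S3 segment in these differences was not tested.

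**Figure D5:**
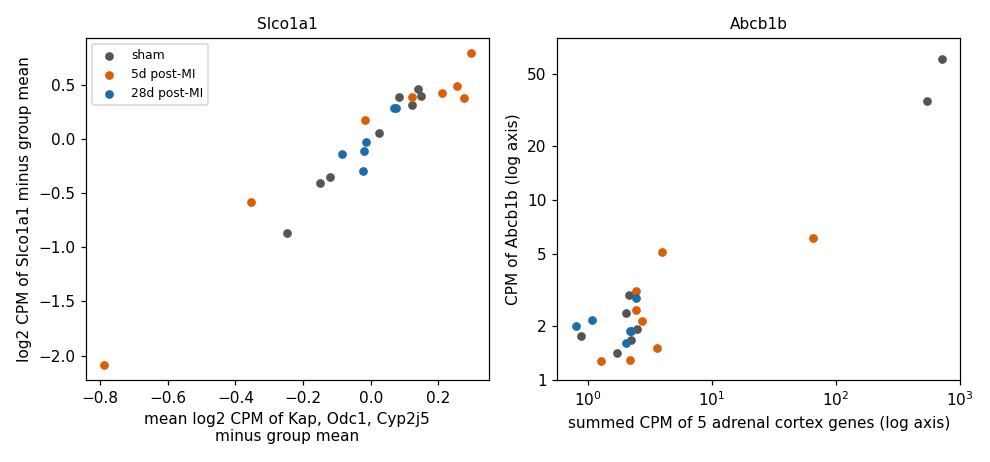
Left, log2 CPM of Slco1a1 against the mean log2 CPM of Kap, Odc1 and Cyp2j5, both minus the group mean, 1 point per kidney (grey sham, orange 5d, blue 28d), on a rising line with 5d replicate 2 at the lower left (r = 0.97, and 0.93 without the 2 lowest kidneys). Right, CPM of Abcb1b against the summed CPM of 5 adrenal cortex genes, both on log axes, where sham replicates 2 and 6 stand apart at 60.9 and 35.6 CPM of Abcb1b.

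Promoter sequences are printed for genes that moved together within groups, since their levels followed the same kidneys. RefSeq windows of 300 bases around the transcription start (GRCm38.p6) were found for 34 of the 43 genes, 42 windows in all. The windows of Slc22a28 and Slc22a30, which lie in the same cluster, were identical at 288 of 294 aligned bases. They are chr19:8131933-8132232 and chr19:8405056-8405355, both on the minus strand, and capitals mark matches to motifs of the liver and kidney factors HNF4 and HNF1.
Slc22a28: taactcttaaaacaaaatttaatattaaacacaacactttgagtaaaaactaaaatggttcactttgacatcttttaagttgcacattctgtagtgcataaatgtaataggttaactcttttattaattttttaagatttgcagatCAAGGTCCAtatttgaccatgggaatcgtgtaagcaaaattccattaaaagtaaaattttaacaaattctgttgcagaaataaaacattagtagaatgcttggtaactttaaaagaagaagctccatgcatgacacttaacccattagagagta
Slc22a30: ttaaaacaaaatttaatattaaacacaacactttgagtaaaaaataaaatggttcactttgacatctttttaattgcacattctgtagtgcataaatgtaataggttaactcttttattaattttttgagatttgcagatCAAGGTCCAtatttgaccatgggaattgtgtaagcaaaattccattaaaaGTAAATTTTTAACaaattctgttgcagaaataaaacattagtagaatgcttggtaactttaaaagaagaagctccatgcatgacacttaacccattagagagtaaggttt
The HNF4 motif was searched as CAAAGTCCA with at most 1 mismatch and the HNF1 motif as GTTAAT, any base and ATTAAC with at most 2, on both strands, and the matches shown do not overlap. Slc22a28 and Slc22a30 share the letters of the HNF4 match, whose first base is at −104 and −110 from the transcription start, and an HNF1 match at these settings was found in Slc22a30 and not in Slc22a28. Of the 2 windows of Slc22a22, chr15:57265112-57265411 on the minus strand held a match to each motif.
Slc22a22: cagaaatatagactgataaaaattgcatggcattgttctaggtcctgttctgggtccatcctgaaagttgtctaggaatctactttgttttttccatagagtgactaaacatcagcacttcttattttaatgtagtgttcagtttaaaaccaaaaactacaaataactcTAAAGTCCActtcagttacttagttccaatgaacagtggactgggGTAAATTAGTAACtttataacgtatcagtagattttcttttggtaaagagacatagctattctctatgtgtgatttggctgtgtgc
Slco1a1 (chr6:141946913-141947212, minus strand) and Slc22a6 (chr19:8617746-8618045, plus strand) followed the same kidneys, and their windows held neither motif at these settings.
Slco1a1: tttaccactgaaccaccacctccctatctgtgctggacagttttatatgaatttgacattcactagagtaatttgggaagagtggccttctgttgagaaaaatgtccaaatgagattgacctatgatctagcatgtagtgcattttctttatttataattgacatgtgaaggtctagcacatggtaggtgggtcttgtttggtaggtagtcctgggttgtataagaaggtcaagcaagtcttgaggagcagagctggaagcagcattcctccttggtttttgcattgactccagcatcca
Slc22a6: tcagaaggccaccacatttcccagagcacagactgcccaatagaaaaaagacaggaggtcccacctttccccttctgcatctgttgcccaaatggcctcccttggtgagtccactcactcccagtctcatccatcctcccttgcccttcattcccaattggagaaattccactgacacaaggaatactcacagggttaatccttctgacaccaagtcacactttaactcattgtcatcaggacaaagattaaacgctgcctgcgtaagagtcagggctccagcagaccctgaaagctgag
Of the 42 windows of transporter genes, 21.4% held the HNF4 motif and 9.52% the HNF1 motif, beside 8.47% and 1.36% of all 32851 windows. The transporter windows are not independent, since related genes of the chromosome 19 cluster share matches. HNF4 matches were found in Slc22a19, Slc22a28, Slc22a29 and Slc22a30 of that cluster, and HNF1 matches in Slc22a29 and Slc22a30. A motif of the androgen receptor, AGAACA, 3 bases of any kind and TGTTCT with at most 3 mismatches on both strands, was in 9.52% of the transporter windows and 14.5% of all windows, and in none of the sequences shown. A match describes letters in this window and is not a binding site.

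The drug exporter Abcb1b (a P-glycoprotein gene) did not pass the count filter, but its highest sham kidney held 42.9 times the level of the lowest. It stood at 60.9 CPM (162 counts) in sham replicate 2 and 35.6 CPM (94 counts) in sham replicate 6, and at 1.27 to 6.17 CPM in the other 20 kidneys. The highest of these others was 5d replicate 5. These 3 kidneys are also those with 65.8 CPM or more of adrenal cortex transcripts, and the part of adrenal tissue in this level was not tested. Its paralog Abcb1a ranged from 1.66 to 3.98 CPM in sham kidneys and from 0 counts to 2.51 CPM at 28d. With sham replicates 2 and 6 and 5d replicate 5 left out, a choice made after seeing the data, 0 of 36 transporter genes were called in each comparison.

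Genes that work with these transporters were read from lists of their regulators, partners and enzymes. Of 17 listed transcription factors and scaffold proteins, 11 were tested and 0 were called in any comparison. Hnf4a, a driver of proximal tubule genes, had 373 ± 35.4 CPM in the 8 sham kidneys (SD), 406 ± 35.4 CPM in 8 kidneys at 5d and 412 ± 35.9 CPM in 6 kidneys at 28d, with log2 fold changes of 0.12 and 0.15 and adjusted p-values of 0.598 and 0.507 from edgeR. Of the 12 dicarboxylate and urate partners, 10 were tested and 0 called. The dicarboxylate carrier Slc13a3, which supplies the exchange substrate of OAT1 and OAT3, had 568.1 ± 83.3 CPM at 5d and 768 ± 169 CPM at 28d (0.43 log2 units, edgeR adjusted p = 0.344). The lactate carrier Slc5a12 had 39.1 ± 6.09 CPM at 5d and 30.6 ± 4.18 CPM at 28d (−0.36 log2 units, edgeR adjusted p = 0.173). Of the 31 drug-conjugating and oxidizing enzymes, 23 were tested, and 1, Ugt3a2, was called, at 28d against 5d, where 0.415% of all genes were. Ugt3a2, which joins sugars to small molecules, had 1016 ± 72.3 CPM at 5d and 1164 ± 51.2 CPM at 28d (0.20 log2 units, edgeR adjusted p = 0.0477). The call was kept in 5 of 22 edgeR fits that each left out a kidney, with adjusted p-values between 0.0237 and 0.128. Of 7 other settings it was kept in 3, and it was lost in edgeR with only the 2 groups compared (adjusted p = 0.106), a replicate block (0.0818), the size factors of DESeq2 (0.0531) or the kidneys with adrenal cortex transcripts left out (0.111). At 5d the lowest adjusted p-value in this list was that of the sulfotransferase Sult1d1, with 463 ± 32.1 CPM in sham kidneys and 578 ± 82.8 CPM at 5d (0.32 log2 units, edgeR adjusted p = 0.119).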

How the data were processed

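Kidney RNA was sequenced by MACE, and per the submitters' processing notes the authors used cutadapt, FastQC, Bowtie2, HTSeq and DESeq2. The deposited table holds whole-number counts per gene that the authors made with HTSeq from libraries with molecular identifiers for removing PCR duplicates, and beside them tpm values, which equal counts scaled to the library total (CPM, as deposited) within 5e-06. The study names mm10 and the notes mm39, and the strand setting and annotation are not given in the sources used here. The table's gene IDs were named from GENCODE M21 for 51948 of 56941, and 4 of 48 value columns, whose name is shared by 2 samples, were not used.

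With filterByExpr (minimum count 10), 12780 of the 30116 detected genes passed, and they were tested with edgeR 4.0.16 (quasi-likelihood, TMM, R 4.3.3) over all 3 groups with Benjamini-Hochberg adjustment, although the study used DESeq2. DESeq2 1.42.0, limma 3.58.1 (voom), no filter, fits of 2 groups, a replicate block and 22 fits without a kidney were alternatives, and the fit without the kidneys holding adrenal cortex transcripts was added after seeing the data, as were an S3 score without Slc3a1 and Kap, Odc1, Cyp2j5, Prlr and the Y-linked genes. Levels are TMM-normalized CPM, and log2 CPM used a prior count of 2. Relations used 100000 permutations within groups. The fit was checked on simulated data. Counts of kidneys of the same group differed by more than sampling noise (chi-square per degree of freedom 1.69 to 7.21 over 71 pairs), so that no library counted double. Same-numbered kidneys of different groups did not deviate together (r −0.127 to 0.0899 over 18 pairs). Named were all genes of the symbol rule with a mean tpm of 1 or more. Values of 1 transporter gene are not reported here, though it is part of all counts and fits. The genes and lists were chosen with earlier results of these data known.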

Additional observations from a re-analysis of the deposited data

Results flagged for a closer look

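Among 129 groups of 4 to 10 kidneys examined, 1 per transporter gene and group, 5 held a kidney whose gap to its nearest neighbour took up more of the group's range than Dixon's 95% critical value, and chance gives about 1 in 20. Slc22a8 in 5d replicate 2 (349.9 CPM, nearest 243 CPM) had a gap of 0.659 of the range, and Slc22a29 in the same kidney (26.2 CPM, nearest 13.96 CPM) one of 0.662. This is the kidney that was lowest of all in 13 transporter genes. In Abcg2, sham replicate 4 was high (310.1 CPM, nearest 274 CPM, gap 0.601). For Slc22a30, 28d replicate 6 was low (157 CPM, nearest 198 CPM, gap 0.663). In Abcc9, sham replicate 6, a kidney with adrenal cortex transcripts, was low (6.07 CPM, nearest 10.2 CPM, gap 0.575).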

How the results depend on the processing

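No transporter gene was called in any comparison by DESeq2, limma's voom, fits of 2 groups, the replicate block or any fit without a kidney, and without a filter on low counts 1 was called at 5d (Slc22a26). DESeq2 gave an adjusted p-value to 2090 genes at 28d against sham, 14935 at 5d against sham and 16103 between the infarct groups. Genes without an adjusted p-value could not be called, which limits what DESeq2 shows at 28d against sham. Counts over all genes moved more (9, 3 and 53 for 5d with sham, 28d with sham and 28d with 5d). DESeq2 called 36, 30 and 91 genes, no filter 80, 94 and 160, and fits of 2 groups 2, 31 and 26. The replicate block, whose numbers do not pair the kidneys, gave 2, 24 and 80, and voom 5 and 5 in the comparisons with sham, where leaving out the kidneys with adrenal cortex transcripts gave 2 and 1. Without 1 kidney each the counts were 1 to 38 (38 without 5d replicate 1), 0 to 29 (0 without 28d replicate 2 or 7) and 41 to 84 (84 without 5d replicate 1). With a prior count of 0.5, 5 relations with the S3 score passed, against 9. Without Slc3a1 in the score, an alternative chosen after seeing the data, 9 passed, and Slc22a22 took the place of Slc47a1. For 28d against sham, fits of 2 groups gave 9 of 35 transporter genes with an unadjusted p-value under 0.05 and the replicate block 10 of 36, against 5 of 36. Over all genes these settings gave 1172 of 12266 and 1188 of 12780, against 1109 of 12780. Signs turned where values were near 0. At 5d, without the adrenal kidneys, Slc22a2 was −0.0518 and Slco1a4 0.127 log2 units, and voom gave −0.00197 for Slc22a2. Without 1 kidney each, the 5d values ran from −0.0303 to 0.0913 for Slc22a2, from −0.0971 to 0.0036 for Slco1a6, from −0.00275 to 0.137 for Abcc1 and from −0.306 to 0.0978 for Slco1a4, and the value of Slc22a13 between infarct groups from −0.104 to 0.026. The cause of these turns was not tested. Genes with few counts per kidney, such as Slco1a4, are limited by depth.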
